A study of Mus musculus with 20 samples.

Results

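Barcodelets are short synthetic RNAs that are transfected into cultured cells to tag each cell with the treatment of its well before many wells are sequenced together. The bulk libraries described here compared mouse embryonic stem cells that had received barcodelets with cells that had not. The comparison takes 6 of the 20 samples of the series, chosen by their labels alone. They are 4 transfected libraries, 2 labelled Barcodelet24h and 2 labelled Barcodelet72h, against 2 libraries labelled Untransfected. The 24 h and 72 h are taken from the group names, and the 2 times were pooled. A difference between the times thus counts as spread in the pooled SD, standard errors and p-values. All 6 came from male stem cells of strain 129P2/OlaHsd, with no genetic change named for these groups. The protocols describe growth in serum with LIF and inhibitors of GSK3 and MEK, and a stepwise withdrawal of these factors for differentiation. The sources used here do not say which of these media the bulk cells were in, or when the untransfected cells were harvested. The transfection protocol, written for the single-cell experiments, names the TransIT-mRNA and mRNA-Boost reagents. No group with reagent alone is among the samples used here, so the reagent and the barcodelet RNA cannot be told apart. The libraries were made with QuantSeq, which reads the 3′ ends of polyadenylated RNA.

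RNA that enters a cell from outside can be sensed in the endosome by Toll-like receptors and in the cytosol by RIG-I (Ddx58), MDA5 (Ifih1) and protein kinase R (Eif2ak2). Toll-like receptors, RIG-I and MDA5 signal through adaptors to interferon regulatory factors and NF-kB, which switch on type I interferons, and these in turn switch on interferon-stimulated genes. Protein kinase R instead phosphorylates the initiation factor eIF2 and so starts the integrated stress response. Pluripotent cells are known for a weak interferon response.

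The 6 libraries held 2899646 to 5134534 reads in genes, with 17278 to 18785 genes detected. Ribosomal protein genes took 15.7% to 20.1% of reads and mitochondrial genes 4.29% to 5.24%. Gm42418, a gene model that overlaps ribosomal RNA, took 10.6% in untransfected 1, 2.63% in untransfected 2 and 3.52% to 5.12% in the transfected libraries. None of these shares differed between transfected and untransfected libraries in a 2-sided exact permutation test (p = 0.533, 0.667 and 0.667). With 4 libraries against 2, the smallest p that test can give is 0.133. All 10 stem cell markers were tested. They summed to 1030 to 1180 CPM (reads set to one shared library size) in untransfected and 868 to 982 CPM in transfected libraries. Marker sums were scaled to total reads, not by TMM as the levels of single genes were. By single genes, all 4 transfected libraries lay below both controls for 1 of the 10 markers, beside 6.5% of all genes. They lay above both for 0, beside 6.08% of all genes. Over the 6 libraries, markers of endoderm summed to 42 to 46 CPM and those of trophoblast to 20.3 to 28.8 CPM. Markers of fibroblasts summed to 2.19 to 4.59 CPM and those of blood to at most 0.209 CPM, with Lum, Postn, Hbb-bs and Hba-a1 at 0. The neural markers Pax6 and Olig2 were at 0 as well. Untransfected 1 stood apart in its streak and mesoderm markers, which summed to 121 CPM against 69.3 in untransfected 2 and 54.1 to 72.1 in the transfected libraries. Nothing in the labels says that the libraries of a group came from separate cultures, so p-values measure the spread between these libraries, which may be technical. In a bulk sample, fewer cells of a type and less RNA per cell cannot be told apart.

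Of 11631 genes tested, 3 were higher in transfected cells at an edgeR adjusted p under 0.05 (0.0258%). They were Tcfl5, Gm45554 and Cntnap5a. None passed as lower, with 240 genes lower at an unadjusted p under 0.05 (2.06%), and 0 were called lower by DESeq2 and by limma-voom. The calls needed both untransfected libraries. Without untransfected 1, edgeR called 0 genes and 220 had an unadjusted p under 0.05. Without untransfected 2 it called 0 and the latter count was 1225.

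Tcfl5 encodes a basic helix-loop-helix transcription factor known from male germ cells (ENSMUSG00000038932.13, chr2:180621956-180642708 of GRCm38, minus strand). Its level was 12.2 and 10.2 CPM in the untransfected libraries, 83.4 and 132 CPM at 24 h, and 62.7 and 44.5 CPM at 72 h. All 4 transfected libraries lay above both untransfected ones, and both 24 h libraries above both at 72 h. The mean was 80.6 ± 37.8 CPM (SD, n = 4) in transfected cells against 11.2 ± 1.39 CPM (n = 2). The difference was a log2 of 2.83 ± 0.35 (SE; 95% interval 2.11 to 3.56; edgeR adjusted p = 0.00192). It stood at 2.96 without untransfected 1 (adjusted p = 0.171) and at 2.71 without untransfected 2 (adjusted p = 0.152). Over all alternatives the adjusted p of Tcfl5 ran from 2.03e-29 to 0.171. Between the times, the 72 h level lay below the 24 h level by a log2 of -0.998 ± 0.246, which did not pass the test (edgeR adjusted p = 0.9998). The gene body overlaps Col9a3, and without the strand used in counting, which no source used here gives, reads of the 2 genes cannot be told apart.

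Gm45554 is a long intergenic noncoding RNA (ENSMUSG00000110362.1, chr8:53436100-53480650, plus strand) that overlaps no other annotated gene. It had 0 reads in both untransfected libraries. The 24 h libraries held 193 and 279 reads and the 72 h libraries 152 and 40. The transfected mean of 45.9 ± 36.3 CPM (n = 4) was at least 158-fold higher than the level that 3 reads over both untransfected libraries would give, 0.29 CPM (edgeR adjusted p = 0.00271). The call ended without untransfected 1 (edgeR adjusted p = 0.202), without untransfected 2 (0.152) and with limma-voom (0.943). Its fitted log2 change, which depends on the prior count, was 10.56 without either control library and 10.62 with both.

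Cntnap5a encodes a cell-surface protein of the neurexin superfamily and spans 902568 bases (ENSMUSG00000070695.4, chr1:115684756-116587323, plus strand). It too had no read in the untransfected libraries, against 36 and 46 reads at 24 h and 34 and 10 at 72 h. Every transfected library held reads, and the fewest were in the second 72 h library. The mean of 8.51 ± 5.48 CPM (n = 4) was at least 29.4-fold higher than the same floor (edgeR adjusted p = 0.0126). The call ended in 5 of 17 alternatives, among them the fits without untransfected 1 (edgeR adjusted p = 0.466), without untransfected 2 (0.152), over all bulk libraries (0.395) and with limma-voom (0.943).

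Other genes were read in some transfected libraries and in no untransfected one. They are given as a description, since they were picked after their values were seen. In all, 7 genes had no read in either untransfected library and at least 20 reads over the transfected ones. The reverse pattern had 0 genes, the most being 11 reads. The transfected libraries held 16052070 reads and the untransfected ones 10094806. Besides Gm45554 and Cntnap5a, the 7 were Olfr71, Tmem63c, Ceacam11, Frmpd3 and Lct. With a minimum of 10 reads the counts were 46 genes against 5, and with 50 reads 4 against 0.

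Olfr71, an olfactory receptor gene (chr4:43704562-43710255), held 194 and 9 reads in the first and second 24 h libraries, and 201 and 2 in those at 72 h. Its transfected mean was at least 78.9-fold above the floor, but it did not pass the test (edgeR adjusted p = 0.575). It passed in 5 of 16 alternatives, whose adjusted p ran from 1.76e-41 to 1. Tmem63c, which encodes an osmosensitive ion channel, held 166 and 0 reads at 24 h and 42 and 2 at 72 h. Ceacam11, of the carcinoembryonic antigen family, held 22 and 0 reads at each time. Frmpd3, a FERM and PDZ domain gene, held 13 and 0, then 14 and 0. These 4 genes were thus read mostly or wholly in the first library of each time. Gm18899, a processed pseudogene within Gphn, showed the same pattern on top of a low level in all libraries, with 18 and 18 reads in untransfected cells, 282 and 20 at 24 h and 237 and 7 at 72 h. Lct, the lactase gene, had the opposite pattern, with 0 and 27 reads at 24 h and 0 and 8 at 72 h.

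**Figure D1:**
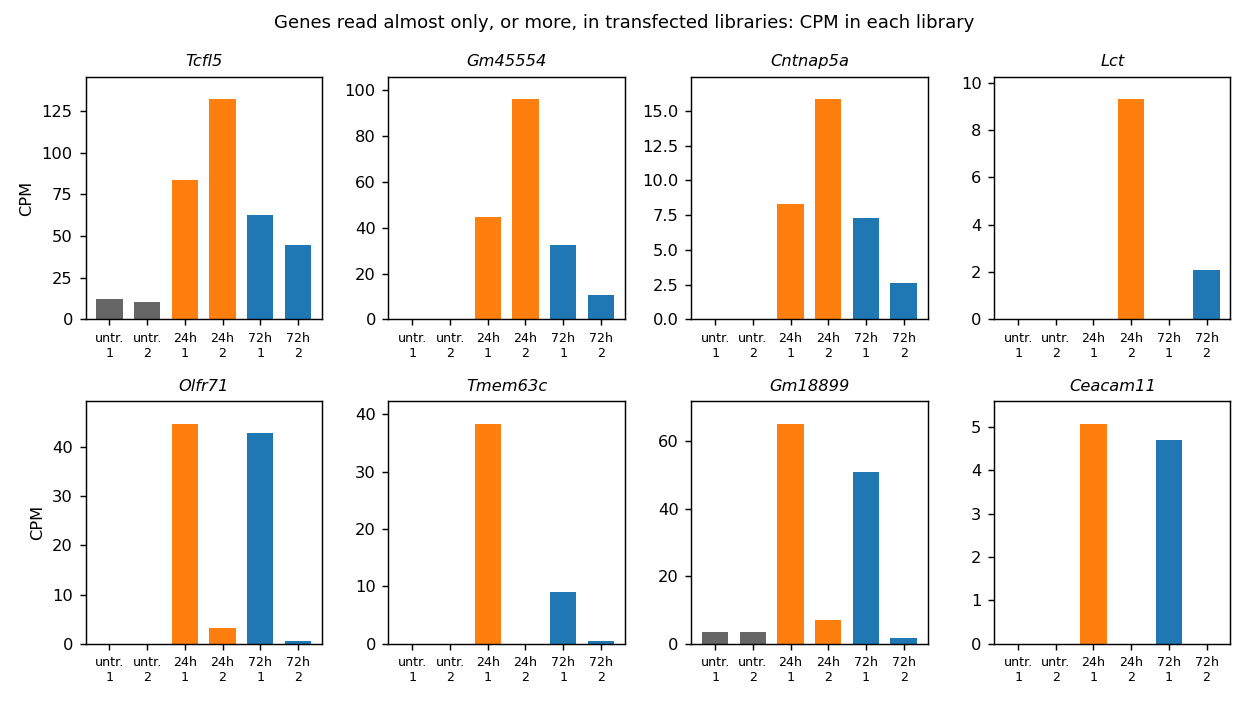
CPM (linear axis from 0) of 8 genes in each of the 6 libraries; bars are single libraries, grey untransfected, orange labelled 24 h and blue labelled 72 h. Tcfl5, Gm45554 and Cntnap5a are high in all 4 transfected libraries, Olfr71, Tmem63c, Gm18899 and Ceacam11 mostly in the first library of each time, and Lct in the second.

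Genes that differed over 5-fold between the 2 libraries of a time in the same direction at both times, with at least 10 reads in each higher library, were counted next. There were 7 with the first libraries higher and 0 with the second higher. Lct, read only in the second libraries, missed the minimum with 8 reads in 72 h 2. The second libraries also held fewer reads in genes, 2899646 against 4257218 at 24 h and 4106580 against 4788626 at 72 h. The part of depth in these counts was not tested. In the crossed pairings, 0 genes were high in 24 h 1 and 72 h 2, and 1 gene, Ccdc38, in 24 h 2 and 72 h 1. The 7 were Olfr71, Tmem63c, Ceacam11, Frmpd3, Gm18899, Pnmal2 and Rpl23a-ps3, of which the last 2 were also read in untransfected cells. The sources used here do not say whether the first and second libraries received different barcodelets.

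The 7 sorted bulk libraries of the series, from Foxa2GFPplus, Foxa2GFPminus and Tdgf1GFPplus cells, hold few reads of the genes without a read in untransfected cells. Gm45554 summed to 2 reads over all 7, Cntnap5a to 4, Tmem63c to 2, Olfr71 to 1, and Ceacam11 and Lct to 0 each. Frmpd3 reached 19 reads, all in Foxa2GFPplus libraries. Tcfl5 was read in all 7, and its level varied between them. Scaled to total reads, it ran from 3.01 CPM in Foxa2GFPplus 1 to 23.2 CPM in Tdgf1GFPplus 1. On that scale it was at 12.7 and 10.3 CPM in the untransfected libraries and 41.4 to 132 CPM in the transfected ones. Gm18899 held 5 to 18 reads in each sorted library.

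In the 3 single-cell experiments all cells came from pools transfected with barcodelets, so they hold no untransfected control and each is 1 library of another assay. Tcfl5 had 1165 UMIs in the germ layer experiment (9.09 CPM of all UMIs, exact 95% Poisson interval 8.575 to 9.626), 724 in the mesendoderm experiment (5.115, 4.749 to 5.501) and 2266 in the mixed one (18.3, 17.55 to 19.07). These intervals cover counting error only. Cntnap5a had 22, 19 and 6 UMIs and Tmem63c 23, 15 and 21. Olfr71 and Ceacam11 had 0 UMIs in each of the 3, which allows up to 0.0234, 0.0212 and 0.0242 CPM. Gm45554 has no row in those matrices. In a table of reads per gene, reads of barcodelet RNA that aligned within a gene and reads of the gene's own transcripts cannot be told apart, and the barcodelet sequences were not used here.

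Over all genes, the median log2 change of the 11631 tested was 0.004, and 537 genes had an unadjusted p under 0.05 (4.62%), of which 297 were higher (2.55%). The 95% interval of the change lay within 2-fold either way for 8194 genes (70.4%). This share depended on level, at 98.8% of the 2623 genes with a mean CPM of at least 50, 94.1% of the 4451 from 10 to 50, and 31% of the 4557 below. The median standard error of the log2 change was 0.18, 0.22 and 0.41 in these classes. All 4 transfected libraries lay above both untransfected ones for 707 genes (6.08%) and below for 756 (6.5%). In the fit of 3 groups, edgeR called 4 genes at 24 h against untransfected cells (0.0344%, with 2.62% at an unadjusted p under 0.05) and 3 at 72 h (0.0258%, with 5.38%). These comparisons share their untransfected libraries. Between 72 h and 24 h it called 0 genes, and 369 had an unadjusted p under 0.05 (3.17%). The plot of change against level shows how the changes narrow as the level rises.

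**Figure D2:**
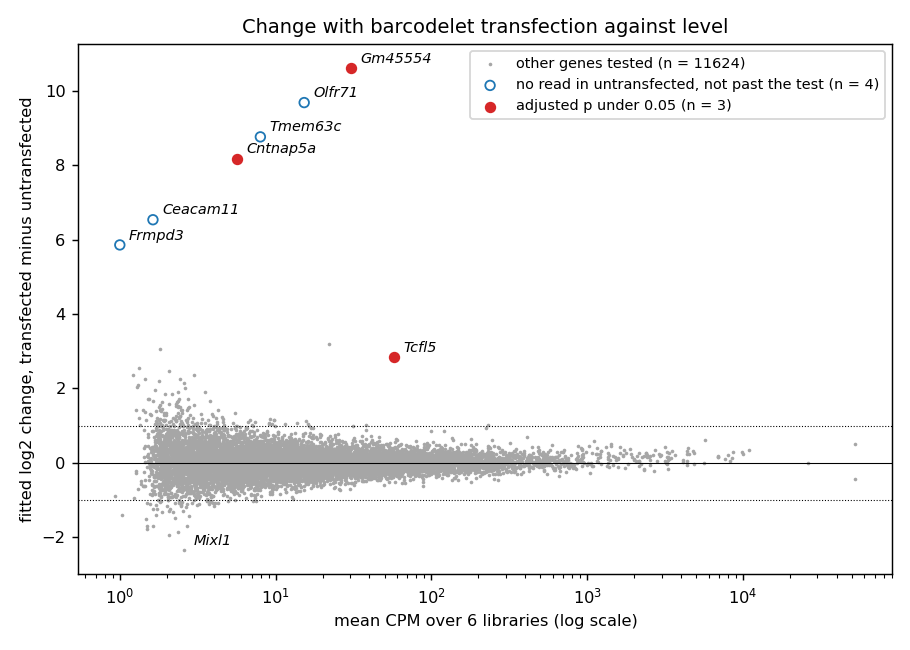
Fitted log2 change of transfected against untransfected cells (vertical axis) for each of the 11631 tested genes, by mean CPM over the 6 libraries (log scale); dotted lines mark 2-fold. The 3 called genes are red, genes without a read in untransfected cells are ringed in blue (their fitted change depends on the prior count), and the other points narrow toward 0 as the level rises.

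For many of the uncalled genes named from here on, the value depended on 1 control. Without untransfected 1 the log2 change moved by over 1.5 times for 45 of 88 named genes, and without untransfected 2 for 26.

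Genes that sense foreign RNA were not called. Of 16 sensors and signal adaptors, 8 had enough reads to be tested, 0 passed the test and 1 was lower at an unadjusted p under 0.05, beside 2.06% of all genes. Their median log2 change was -0.18. That gene was Ddx58, the RIG-I helicase, at 5.61 and 2.895 CPM in untransfected cells, 1.62 and 2.07 CPM at 24 h, and 2.35 and 1.31 CPM at 72 h. Each transfected library lay below both controls (log2 -1.20 ± 0.47, edgeR adjusted p = 0.978), and the change was -0.65 without untransfected 1. Trim25, the ubiquitin ligase that acts on RIG-I, stood at -0.17 ± 0.17. Tbk1, the kinase that activates interferon regulatory factors, stood at 0.28 ± 0.24. Ifih1, Tlr3, Tlr7, Tlr8 and Irf7 held at most 2 reads in any library.

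The interferon genes Ifnb1, Ifna4, Ifnl2 and Ifnl3 had 0 reads in all 6 libraries, which over 26146876 reads allows up to 0.115 CPM of each gene. Receptors and their signal carriers were present. Of 9 tested, 0 passed the test (median log2 0.17). Ifnar2, a subunit of the type I receptor, stood at -0.34 ± 0.23, the receptor kinase Tyk2 at -0.45 ± 0.32, and the transcription factor Stat2 at 0.30 ± 0.24. The transfected and untransfected libraries overlapped for each of these 3.

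Of 33 interferon-stimulated genes, 27 were too low to test, with at most 13 reads in any library. Among them Ifit1 had 0 reads in all 6 libraries. Isg15, a ubiquitin-like modifier, had 0 reads in the untransfected libraries and 2 over the 4 transfected ones. Of the 6 that were tested 0 passed, and 1 was higher and 5 lower in sign (median -0.10). Irf1, a transcription factor of the interferon response, was at 36.95 and 32.8 CPM in untransfected cells, 19.9 and 26.5 CPM at 24 h, and 21.4 and 17.0 CPM at 72 h. All 4 transfected libraries lay below both controls (log2 -0.73 ± 0.20, edgeR adjusted p = 0.978, 0.306 to 1 over the alternatives). Ifitm3, a membrane protein that restricts virus entry, was the one higher in sign at 0.21 ± 0.18, and Bst2, which tethers virus particles, stood at -0.28 ± 0.19.

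NF-kB targets and cytokines were mostly near 0, with 17 of 21 at 6 or fewer reads in every library. None of the 4 tested passed (median -0.11). Nfkbia, the inhibitor that NF-kB itself induces, was at 135 and 147 CPM in untransfected cells, 134 and 111 CPM at 24 h and 113 and 129 CPM at 72 h (log2 -0.21 ± 0.16). Relb, a subunit of the noncanonical pathway, stood at 0.89 ± 0.43 from a low level of 2.13 and 3.47 CPM. Nfkb1 stood at -0.17 ± 0.39.

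The machinery that shortens and degrades RNA was well covered. Of 20 tested genes 0 passed and 13 were higher in sign (median 0.18). All transfected libraries lay above both controls for 5, a pattern that 6.08% of all genes showed. They lay below both for 3, a pattern of 6.5% of all genes. Smg1, the kinase of nonsense-mediated decay, was at 42.4 and 51.9 CPM in untransfected cells, 58.5 and 60.6 CPM at 24 h and 59.5 and 58.6 CPM at 72 h (log2 0.33 ± 0.17). Smg6, the endonuclease of that pathway, stood at 0.42 ± 0.24, and Lsm1, a subunit of the decapping activator, at 0.44 ± 0.24. Pan3, of a poly(A)-shortening complex, stood at -0.32 ± 0.21.

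Stress pathways were tested next. In the integrated stress response, 0 of 22 tested genes passed and 3 were higher at an unadjusted p under 0.05, beside 2.55% of all genes (median 0.06). Ddit3 encodes CHOP, a factor that the pathway induces. It was at 71.2 and 84.3 CPM in untransfected cells, 110.0 and 97.2 CPM at 24 h, and 135 and 113 CPM at 72 h, so that all 4 transfected libraries exceeded both controls (log2 0.55 ± 0.18, edgeR adjusted p = 0.978). Ddit4, an inhibitor of mTORC1, stood at 0.49 ± 0.19 with the same order of groups. Cebpb, a leucine zipper factor, stood at 1.26 ± 0.53 between means of 1.26 and 3.04 CPM. Asns, the asparagine synthetase gene and a standard target of ATF4, lay the other way at -0.22 ± 0.16, below both controls in all 4 transfected libraries. The members thus did not share a direction.

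Of 17 genes of the unfolded protein response 0 passed (median 0.09). The chaperone gene Hyou1 stood at 0.53 ± 0.26, Manf, a secreted factor of the endoplasmic reticulum, at 0.36 ± 0.24, and Sel1l, of the degradation machinery, at -0.23 ± 0.20. Of 14 heat shock genes 0 passed and 10 were lower in sign (median -0.07). All 14 had an interval within 2-fold. Dnaja1, a co-chaperone, was at 67.7 and 50.8 CPM in untransfected cells and 44.2 to 49.0 CPM in the transfected ones (log2 -0.37 ± 0.17), and stood at -0.15 without untransfected 1. Hspd1 and Hspe1, the paired mitochondrial chaperonins, stood at -0.40 ± 0.19 and 0.17 ± 0.20, and Hsph1 at -0.30 ± 0.18.

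Of 22 p53 targets 0 passed, and 2 were higher at an unadjusted p under 0.05, beside 2.55% of all genes (median 0.15). Bbc3, which encodes the cell death protein PUMA, was at 15.9 and 22.4 CPM in untransfected cells, 24.5 and 30.7 CPM at 24 h and 22.5 and 37.6 CPM at 72 h (log2 0.58 ± 0.24, and 0.35 without untransfected 1). Gdf15, a stress cytokine, stood at 0.62 ± 0.25, but 72 h 2 at 22.2 CPM lay below untransfected 2 at 23.0 CPM. Zmat3 stood at 0.38 ± 0.18 and Sesn1 at -0.38 ± 0.36. Without untransfected 1 Gdf15 stood at 0.33, Zmat3 at 0.18 and Sesn1 at -0.25. Of 9 immediate early genes 0 passed and 8 were higher in sign (median 0.25). Ier3, which is induced by growth factors and stress, stood at 0.81 ± 0.30, with 72 h 2 at 11.0 CPM within the untransfected range of 10.8 to 11.4 CPM. Klf6 stood at 0.25 ± 0.17 and Ier2 at -0.42 ± 0.32.

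Transfection complexes enter through endosomes. Of 25 tested genes of the endosome, lysosome and autophagy 0 passed, and 24 had an interval within 2-fold (median 0.05). Hexa, a lysosomal hexosaminidase, was at 153 and 180 CPM in untransfected cells, 198 and 189 CPM at 24 h and 213 and 224 CPM at 72 h (log2 0.31 ± 0.16). Lamp2, a lysosomal membrane protein, stood at 0.29 ± 0.16, the sialidase Neu1 at 0.37 ± 0.19 and Gla, alpha-galactosidase, at -0.19 ± 0.21. Of 21 cholesterol synthesis genes 0 passed (median -0.01). Insig1, which holds the sterol sensor in the endoplasmic reticulum, was at 24.0 and 22.2 CPM in untransfected cells and 27.7 to 36.9 CPM in the transfected ones (log2 0.44 ± 0.20). Hsd17b7 stood at 0.52 ± 0.27 and Lss at -0.41 ± 0.26, and at 0.31 and -0.08 without untransfected 1.

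**Figure D3:**
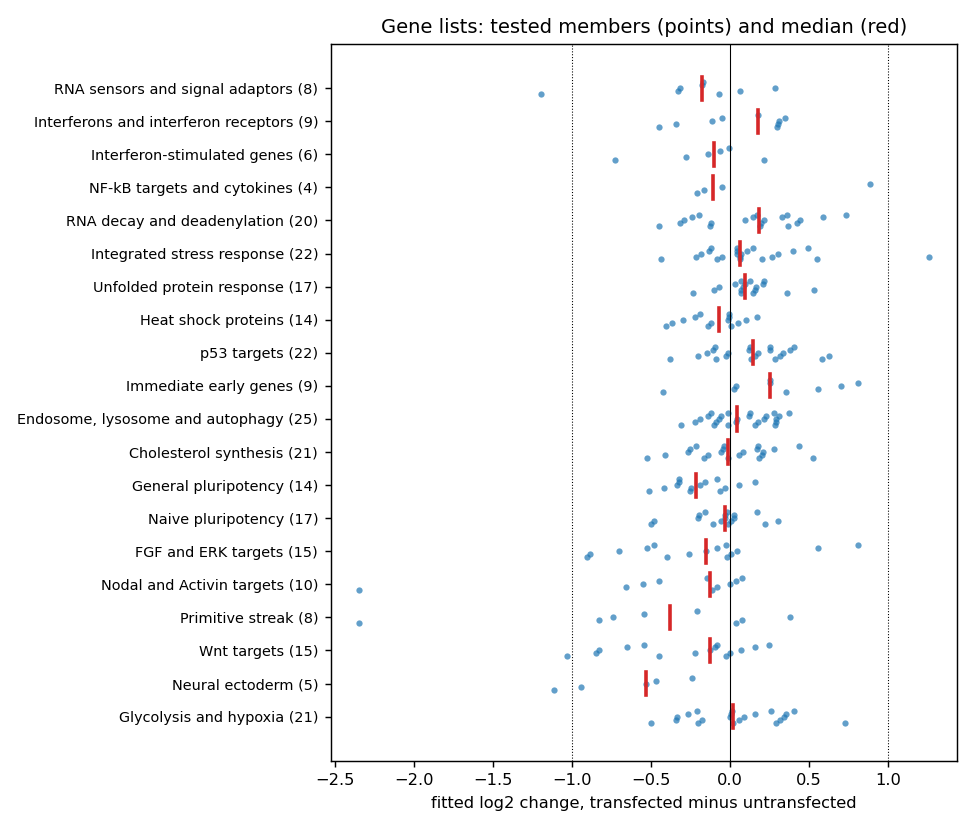
Fitted log2 change of transfected against untransfected cells (horizontal axis, dotted lines at 2-fold) for each tested member of 20 gene lists; blue points are genes, red bars the median, and the number tested is in parentheses. Medians lie between -0.53 (neural ectoderm) and 0.25 (immediate early genes), beside 0.004 over all genes, and no gene shown was called.

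The core pluripotency genes did not pass the test. Sox2 was at 240 and 239 CPM in untransfected cells, 217 and 185 CPM at 24 h, and 231 and 173 CPM at 72 h. Each of the 4 transfected libraries lay below both controls, by a log2 of -0.25 ± 0.17 (95% interval -0.60 to 0.10, edgeR adjusted p = 0.978). Nanog stood at -0.26 ± 0.17 (-0.61 to 0.10) and Pou5f1, which encodes Oct4, at 0.16 ± 0.22 (-0.32 to 0.63). Of the 14 general pluripotency genes 0 passed, 12 were lower in sign (median -0.22), and all 14 had an interval within 2-fold. Dppa2, a chromatin factor of early embryos, was at 24.4 and 18.3 CPM in untransfected cells and 13.8 to 16.7 CPM in the transfected ones (log2 -0.52 ± 0.21, and -0.30 without untransfected 1). Zfp281 stood at -0.42 ± 0.22 and at -0.08 without untransfected 1, and Utf1, a chromatin-bound marker of these cells, at -0.33 ± 0.19 and at 0.01 without that library. Of 17 naive pluripotency genes 0 passed (median -0.03). The nuclear receptors Nr5a2 and Nr0b1 stood at -0.48 ± 0.24 and -0.50 ± 0.28, and Spp1 at 0.30 ± 0.18.

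FGF signalling through ERK drives stem cells out of the naive state and induces its own inhibitors. Of 15 targets 0 passed, with 3 lower and 1 higher at an unadjusted p under 0.05, beside 2.06% and 2.55% of all genes (median -0.16). Spry2, a feedback inhibitor, was at 17.4 and 19.5 CPM in untransfected cells, 5.78 and 8.96 CPM at 24 h, and 12.4 and 12.03 CPM at 72 h. The 24 h libraries were the lowest and all 4 lay below both controls (log2 -0.91 ± 0.27, edgeR adjusted p = 0.978). Dusp6, an ERK phosphatase, was at 45.9 and 35.5 CPM in untransfected cells, 16.2 and 10.7 CPM at 24 h, and 32.1 and 39.7 CPM at 72 h. The 24 h libraries were the lowest, 72 h 1 lay just below both controls, and 72 h 2 lay between them. Pooled over time Dusp6 did not pass (log2 -0.70 ± 0.32), while in a fit of the 24 h libraries alone it stood at -1.56 and passed (edgeR adjusted p = 0.019, against 0.978 with both times). Spred1, a further ERK inhibitor, stood at -0.48 ± 0.20, and at -0.27 without untransfected 1.

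Nodal and Activin signal through SMAD2 and SMAD3 to form mesendoderm. Of 10 targets 0 passed and 4 were lower at an unadjusted p under 0.05, beside 2.06% of all genes (median -0.13). Mixl1, a homeobox gene of the primitive streak, was at 8.12 and 3.09 CPM in untransfected cells, 1.62 and 1.03 CPM at 24 h, and 0.86 and 0.78 CPM at 72 h. All 4 transfected libraries lay below both controls, with 7, 3, 4 and 3 reads (log2 -2.35 ± 0.52, edgeR adjusted p = 0.575, from 0.00495 to 1 over the alternatives). The change was -1.50 without untransfected 1. It passed in the fit without a filter on low counts. Smad7, an inhibitor of the pathway, stood at -0.66 ± 0.22 and Lefty2, a secreted antagonist of Nodal, at -0.45 ± 0.16, both with all 4 transfected libraries below both controls. Lefty1, the remaining one, was named after its values were seen and stood at -0.55 ± 0.21, with 24 h 2 at 76.2 CPM above untransfected 2 at 69.1 CPM. Tdgf1, the Nodal coreceptor, stood at -0.08 ± 0.17 and Nodal itself at 0.07 ± 0.21.

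Primitive streak genes mark the first step toward mesoderm and endoderm. Of 8 tested 0 passed and 4 were lower at an unadjusted p under 0.05, beside 2.06% of all genes (median -0.38). Mixl1 is 1 of these 4 and is counted among the Nodal and Activin targets as well. T (Brachyury) was at 105 and 57.5 CPM in untransfected cells, 52.0 and 66.5 CPM at 24 h, and 53.9 and 50.7 CPM at 72 h. Its change of -0.55 ± 0.21 rested on untransfected 1, and without that library it was -0.05. Sp5, a target of Wnt, stood at -0.83 ± 0.29, with 24 h 2 at 12.4 CPM, level with untransfected 2. Wnt3, named after its values were seen, stood at -0.74 ± 0.33, and Fgf8 at 0.38 ± 0.49. The summed streak and mesoderm markers were highest in untransfected 1 (121 CPM), and the part of that library's cell state in the Nodal, streak and Wnt values was not tested beyond the values without it. Foxa2, a factor of the endoderm, stood at 0.09 ± 0.22. Of 15 Wnt targets 0 passed and 4 were lower at an unadjusted p under 0.05, beside 2.06% of all genes (median -0.13), of which T and Sp5 are counted above as well. The caudal genes Cdx1 and Cdx2 stood at -0.85 ± 0.30 and -1.03 ± 0.35, and Cdx2 at -0.43 without untransfected 1. Ccnd2, which encodes cyclin D2, lay the other way at 0.25 ± 0.17.

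Of 15 neural ectoderm genes 10 were too low to test, with at most 9 reads. None of the other 5 passed, and all 5 were lower in sign, with 3 at an unadjusted p under 0.05, beside 2.06% of all genes lower at that p (median -0.53). Map2, of the neuronal cytoskeleton, was at 12.6 and 9.07 CPM in untransfected cells, 7.63 and 6.55 CPM at 24 h and 4.70 and 3.66 CPM at 72 h (log2 -0.94 ± 0.32). Tubb3, neuronal tubulin, stood at -1.11 ± 0.53 with overlapping groups. Of 21 genes of glycolysis and hypoxia 0 passed (median 0.02). Ndrg1, which hypoxia induces, was at 22.1 and 34.7 CPM in untransfected cells, 47.4 and 44.5 CPM at 24 h and 44.7 and 51.5 CPM at 72 h (log2 0.73 ± 0.20, and 0.43 without untransfected 1). The glucose transporter gene Slc2a1 stood at -0.34 ± 0.17 and the enolase gene Eno1 at 0.35 ± 0.18, and at -0.14 and 0.12 without that library.

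**Figure D4:**
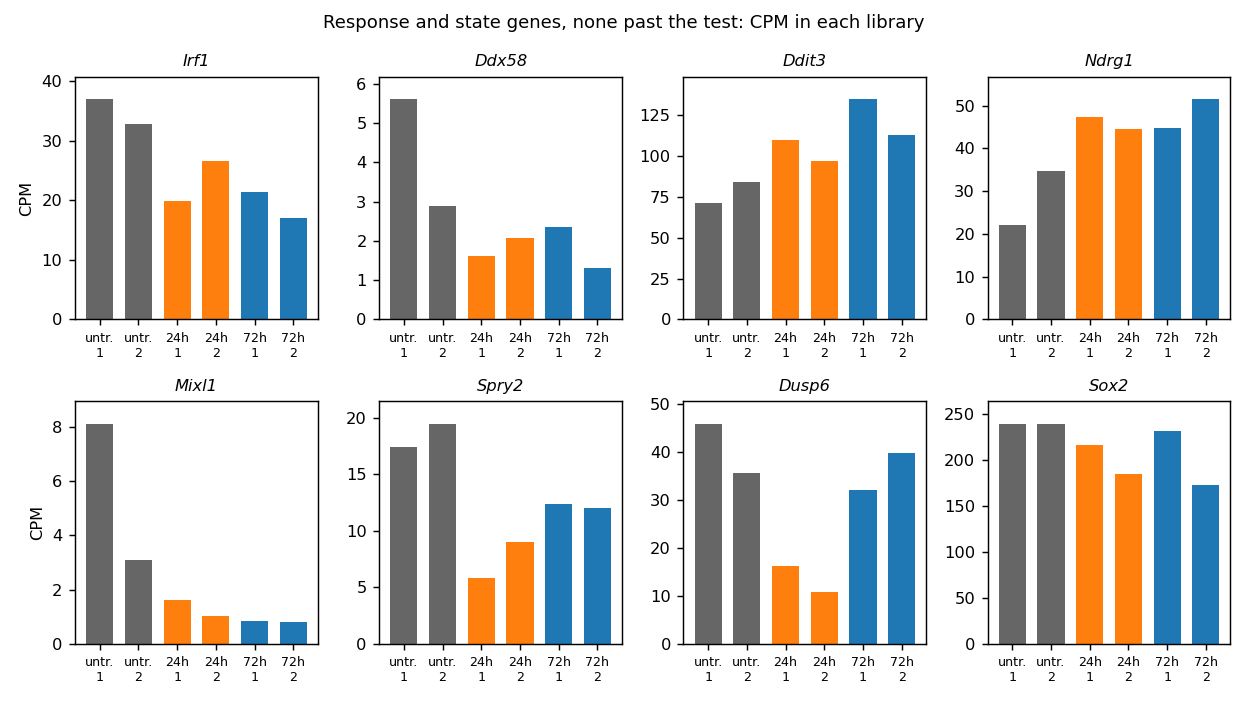
CPM (linear axis from 0) of 8 response and cell state genes in each library; bars are single libraries, grey untransfected, orange 24 h and blue 72 h. None passed the test with both times pooled; Irf1, Ddx58, Mixl1, Spry2 and Sox2 are lower and Ddit3 and Ndrg1 higher in all 4 transfected libraries than in both controls, and Dusp6 is lowest at 24 h.

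Over all 36 lists, 438 of 605 genes were tested and 1 was called, Tcfl5 itself. At an unadjusted p under 0.05, 12 were higher (2.74%) and 23 lower (5.25%), beside 2.55% and 2.06% of all genes tested. The lists share genes and were chosen with earlier results of these data known, and a list was built around Tcfl5. The call and these shares are thus a description and no independent evidence.

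The uncalled genes with the smallest p and a mean of at least 10 CPM, apart from Olfr71 and the genes of the lists described, are given last. Among those higher, Crybb3, a crystallin gene, was at 7.54 and 8.11 CPM in untransfected cells, 12.3 and 19.3 CPM at 24 h, and 16.9 and 18.3 CPM at 72 h (log2 1.08 ± 0.26, edgeR adjusted p = 0.978). Rn7sk, the small nuclear RNA that holds the elongation factor P-TEFb inactive, stood at 1.01 ± 0.28, and its highest level, 75.1 CPM, was in the library with the fewest reads, 24 h 2. Calml4, a calmodulin-like gene, stood at 1.05 ± 0.30, Gfod2 at 0.73 ± 0.19, and Serpinh1, the collagen chaperone HSP47, at 0.63 ± 0.19. Without untransfected 1 Calml4 stood at 0.69 and Serpinh1 at 0.38. All 4 transfected libraries exceeded both controls for these 5 genes, beside 6.08% of all genes, but the 5 were picked for their small p. Among those lower, Sulf2, which trims heparan sulfate, stood at -0.70 ± 0.19, Naa30, a protein acetyltransferase subunit, at -0.67 ± 0.19, and Rhno1, of the DNA damage checkpoint, at -0.96 ± 0.28. Cdadc1 stood at -0.80 ± 0.25, Idnk, a gluconate kinase, at -0.77 ± 0.24, and Klhl22, a ubiquitin ligase adaptor, at -0.65 ± 0.20. Bcat1, the cytosolic aminotransferase of branched-chain amino acids, stood at -0.53 ± 0.17 and Arl5a, a small GTPase of the Golgi, at -0.57 ± 0.19. Without untransfected 1 Rhno1 stood at -0.57, Idnk at -0.50 and Arl5a at -0.37. In these 8, picked the same way, all transfected libraries lay below both controls, beside 6.5% of all genes.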

How the data were processed

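The authors deposited 1 table of unnormalised read counts for the bulk libraries (54146 gene rows) and single-cell matrices of UMI counts. HTSeq 0.9.1, STAR 2.5.2b, Cell Ranger 1.3.1 and mm10 appear in the submitters' processing notes without roles. Which tool counted which library, and whether by strand, no source used here states. Coordinates are from GENCODE vM21 (GRCm38), which matched 52480 rows. Counts of the 6 libraries were scaled by TMM, filtered with filterByExpr and fitted with edgeR 4.0.16 (R 4.3.3) with 1 term, transfected against untransfected, by the quasi-likelihood test (2-sided, Benjamini-Hochberg over all genes tested, adjusted p under 0.05). Intervals use the unshrunk coefficient. A 3-group fit gave the contrast of the times. The procedure was tested on simulated counts. The alternatives used DESeq2 1.42.0, limma 3.58.1, other filters and scalings, other sets of libraries and each library left out. Lists were described by counts and medians, with no set test; some genes are in several lists. The members and lists were chosen with earlier results of these data known. Named genes were all called genes; up to 10 per direction with the smallest p and a mean CPM of at least 10, leaving out gene models, mitochondrial and ribosomal protein genes; for 20 lists, the 3 members with the smallest p and the smallest of opposite direction; and Pou5f1, Sox2, Nanog, Foxa2, Tdgf1, Dusp6 and Tcfl5. No 2 libraries were alike within sampling noise (chi-square per gene 4.38 to 37.3). The highest value, 37.3, was between the 2 untransfected libraries. Untransfected 2 stood at 4.86 to 15.5 with the 4 transfected libraries, lower on this measure than with its own replicate. The correlation of log2 CPM was 0.969 between the 2 untransfected libraries, within the 0.9563 to 0.9808 of all pairs. Between untransfected 2 and the transfected libraries it was 0.9686 (24 h 2) to 0.9802 (24 h 1), so by correlation untransfected 2 was not nearer to all 4. Reads carry no molecular identifiers in the bulk table, so floors cover counting error only. A gene that this rule names is not reported here.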

Additional observations from a re-analysis of the deposited data

Results flagged for a closer look

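In 2 of the 96 results tested this way, which were genes and shares of reads, 1 of the 4 transfected libraries lay far from the other 3. Chance sets apart about 1 in 20 such groups. Cdadc1 stood at 12.19 CPM in 72 h 1, against 8.319, 8.615 and 8.367 CPM in the others. Hyou1, a chaperone of the endoplasmic reticulum, stood at 17.78 CPM in 72 h 2, against 13.17, 12.41 and 12.4 CPM.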

How the results depend on the processing

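The count of 3 called genes was 3 with RLE scaling, DESeq2, a mean CPM of at least 5, the 3-group fit, the 72 h libraries alone, and without ribosomal protein, mitochondrial and Gm42418 counts, and 2 in the fit over all bulk libraries. It was 1 with limma-voom (Tcfl5), 16 with no filter on low counts (15 higher, 1 lower) and 6 with the 24 h libraries alone (5 higher, 1 lower); the cause was not tested. Leaving out 1 library gave 0 to 5 calls, with 0 without either untransfected library, where fewer samples were left (the lone control was assumed to vary like the transfected libraries), and 5 without 24 h 2 or 72 h 2. List members called numbered 1, against 2 with no filter and 2 with 24 h alone, and 0 to 1 with 1 library left out. The count of intervals within 2-fold ran from 6006 to 8560. The replicate numbers were not taken to pair the samples, since the labels tie them to nothing shared and deviations of libraries with the same number correlated at -0.157, -0.08 and 0.109. The last is between 24 h and 72 h, whose first libraries share the 7 genes described above. A fit with the replicate number as a block called 3 genes, 2 of them called without it; Cntnap5a was at an adjusted p of 0.0751 and Olfr71, read mostly in the first libraries, at 0.000713 by edgeR. Signs turned for uncalled genes with small changes. With 24 h alone Nodal was at -0.045 and Foxa2 at -0.095, and with 72 h alone Nfkb1 at 0.034. With 1 library left out, Nfkb1 ran from -0.566 to 0.386, Ier2 from -0.881 to 0.246, Utf1 from -0.618 to 0.011, Fgf8 from -0.146 to 1.198 and Tdgf1 from -0.257 to 0.105, all turned without untransfected 1. Pou5f1 ran from -0.055 (without untransfected 2) to 0.396 and Nodal from -0.012 (without 72 h 1) to 0.142. Of the alternatives for the log2 changes of named genes, 1460 kept their direction and side of the threshold. In 10 the sign turned, in 8 an uncalled gene passed and in 10 a call was lost. Most of the named genes were uncalled in the main fit and stayed so. The alternatives at minimums of 10 and 50 reads were chosen after seeing the data. Depth limits genes under 10 CPM most, where 31% of intervals lay within 2-fold.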

Other observations

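Lists that the comparison above does not describe held no called gene apart from Tcfl5. Of 20 genes of DNA replication and S phase, 0 passed, 14 were lower in sign and all 20 had an interval within 2-fold (median -0.10). Of 18 genes of mitosis and G2/M, 0 passed, 15 were higher in sign and all 18 had an interval within 2-fold (median 0.04). Of 20 genes of the two-cell-like state, an early totipotent program, 19 had at most 5 reads in any library. Of 17 germ cell and methylation-controlled genes, which are known to respond to loss of DNA methylation, 0 passed (median -0.08), and of 15 imprinted genes 0 passed (median -0.06). Of 17 bHLH and spermatogenic regulators, a list built around Tcfl5, 13 were higher in sign and 1 passed, Tcfl5 itself (median 0.16).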
